A study of Mus musculus with 8 samples.

Results

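The genes described here are 45 genes for axon guidance and for cell contact during neuronal migration. They comprise the Slit ligands and their Robo receptors, netrin with Dcc and the Unc5 receptors, the ephrins and Eph receptors, the semaphorins with plexins and neuropilins, and the FLRT proteins, teneurins and latrophilins. The list was fixed by name, and all 45 genes were present in both count tables, among 23420 genes listed at E11.5 and 78298 at E12.5. It was selected on measured values, the log2 fold changes between genotypes at E11.5, where Tenm4 and Flrt2 stood out. The E11.5 genotype values of these genes are therefore given as a description without a test. Earlier results of the E12.5 embryos were also known when the list was drawn up.

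Growing axons and migrating neurons read cues held on neighbouring cells or secreted by them. Slits, netrins and class 3 semaphorins are secreted and bind receptors on the growth cone, whereas ephrins and Eph receptors signal between touching cells and can do so in both directions. Teneurins and FLRT proteins bind latrophilins across cell contacts, and FLRT proteins also bind Unc5 receptors, which act as repulsive receptors in migrating cortical neurons.

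RNA was sequenced from whole cortex of Mboat7 heterozygous (Mboat7+/-) and KO (Mboat7-/-) mouse embryos at E11.5 and E12.5. Mboat7 encodes LPLAT11, the acyltransferase that places arachidonic acid into phosphatidylinositol, and the KO was global, so that every cell type of the dissected cortex lacked the intact gene. There were 2 embryos per genotype and stage, 8 cortices in all, Mboat7+/- embryos served as the control, and no embryo of either genotype carried 2 intact copies. Mice were on a C57BL/6N background, and embryos of either sex were used. In such bulk samples, fewer cells of a type and less RNA per cell cannot be told apart. The E11.5 and E12.5 libraries were sequenced by different providers on different platforms and counted with different annotations.

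The total count per cortex was 21843330 to 28189771 at E11.5 and 20799311 to 23330432 at E12.5, and the 45 genes held 0.367 to 0.415% and 0.370 to 0.445% of it. A count of 3, the floor for counting error alone, was 0.106 to 0.144 CPM (counts per 1000000 counts of the library). Mboat7 itself was at 32.3 and 33.1 CPM in the E11.5 Mboat7+/- cortices and at 39.0 and 34.8 CPM in those labelled Mboat7-/-, and at E12.5 at 35.5 and 36.2 against 31.7 and 32.2 CPM. Its count was thus not lower in the cortices labelled Mboat7-/- at E11.5, and at E12.5 its log2 fold change of -0.17 was not called (edgeR adjusted p = 0.958). The part of the gene removed by the allele is not given in the sources used here, so the counts do not check the labels, and every genotype direction below rests on them. Emx1, which marks the dorsal forebrain, was present in every cortex (35.8 to 79.7 CPM), with both E11.5 cortices labelled Mboat7-/- below both Mboat7+/- ones (35.8 and 49.6 against 56.9 and 65.7 CPM, log2 fold change -0.53). Xist, which is transcribed from the inactive X chromosome of females, had 17875 counts in E11.5 Mboat7+/- replicate 1 and at most 2 counts in every other cortex, so the sexes were not balanced. Efnb1, Plxna3 and Tenm1 lie on the X chromosome.

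All 45 genes passed the filter on low counts at both stages, with between 6 and 8877 counts per cortex at the earlier stage and between 47 and 6740 at the later one. Per kilobase of transcript, the median level was 9.50 CPM at E11.5 and 9.79 CPM at E12.5. The highest level per kilobase at both stages was that of Efnb1, a transmembrane ephrin, at 94.6 and 89.3 CPM, and the lowest was that of Tenm1 at 0.0287 and 0.332 CPM.

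Within the families, the order of levels per kilobase was as follows. Robo1 led the Slit and Robo genes at 15.6 CPM at E11.5 and 15.1 CPM at E12.5, whereas the lowest were Slit1 at E11.5 (2.95 CPM) and Slit3 at E12.5 (0.677 CPM). Netrin 1 (Ntn1), a secreted attractant and repellent, led its family at E11.5 with 12.8 CPM, and its receptor Dcc led at E12.5 with 15.0 CPM. The lowest in that family were Unc5d at E11.5 (0.246 CPM) and Unc5c at E12.5 (0.886 CPM). Among the Eph receptors, Ephb2 was highest at E11.5 (20.4 CPM) and Epha4 at E12.5 (29.2 CPM), with Epha5 lowest at E11.5 (1.78 CPM) and Ephb3 lowest at E12.5 (4.77 CPM). Among the ephrins, Efna5 was the lowest at both stages, at 17.2 and 5.55 CPM. Sema6a, a transmembrane semaphorin, led the semaphorins at 12.7 and 10.3 CPM, and the secreted Sema3c was lowest at 3.02 and 3.44 CPM. Plxnb1 led the plexins and neuropilins at E11.5 (34.9 CPM) and Plxna1 at E12.5 (24.4 CPM), whereas Plxna4 was lowest at E11.5 (2.43 CPM) and Nrp1 at E12.5 (5.33 CPM). Flrt3 was the highest FLRT gene at both stages (19.6 and 16.5 CPM) and Flrt1 the lowest (1.61 and 1.34 CPM). Tenm3 was the highest teneurin at E11.5 (18.8 CPM) and Tenm4 at E12.5 (15.0 CPM), and Adgrl1 was the highest latrophilin (31.6 and 25.5 CPM) with Adgrl3 the lowest (2.52 and 4.44 CPM).

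The first comparison was that of the genotypes within each stage. No guidance gene differed between genotypes by a log2 fold change of 1 at either stage, and 4 at E11.5 (Flrt2, Slit3, Tenm1 and Tenm4) and 2 at E12.5 (Tenm1 and Unc5d) differed by 0.5 or more, each higher in the cortices labelled Mboat7-/-. At E12.5, other embryos were tested, although earlier results of that stage were known when the list was drawn up. None of the 45 genes was called there by the edgeR quasi-likelihood test (smallest adjusted p = 0.958), where 0.0184% of all 16326 genes tested were called. DESeq2 and edgeR's exact test called none of the 45 at E12.5 either. The family accounts below give each level as CPM on TMM-normalised library sizes, and each fold change as log2 of the cortices labelled Mboat7-/- over the Mboat7+/- cortices, with its standard error (SE).

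**Figure D1:**
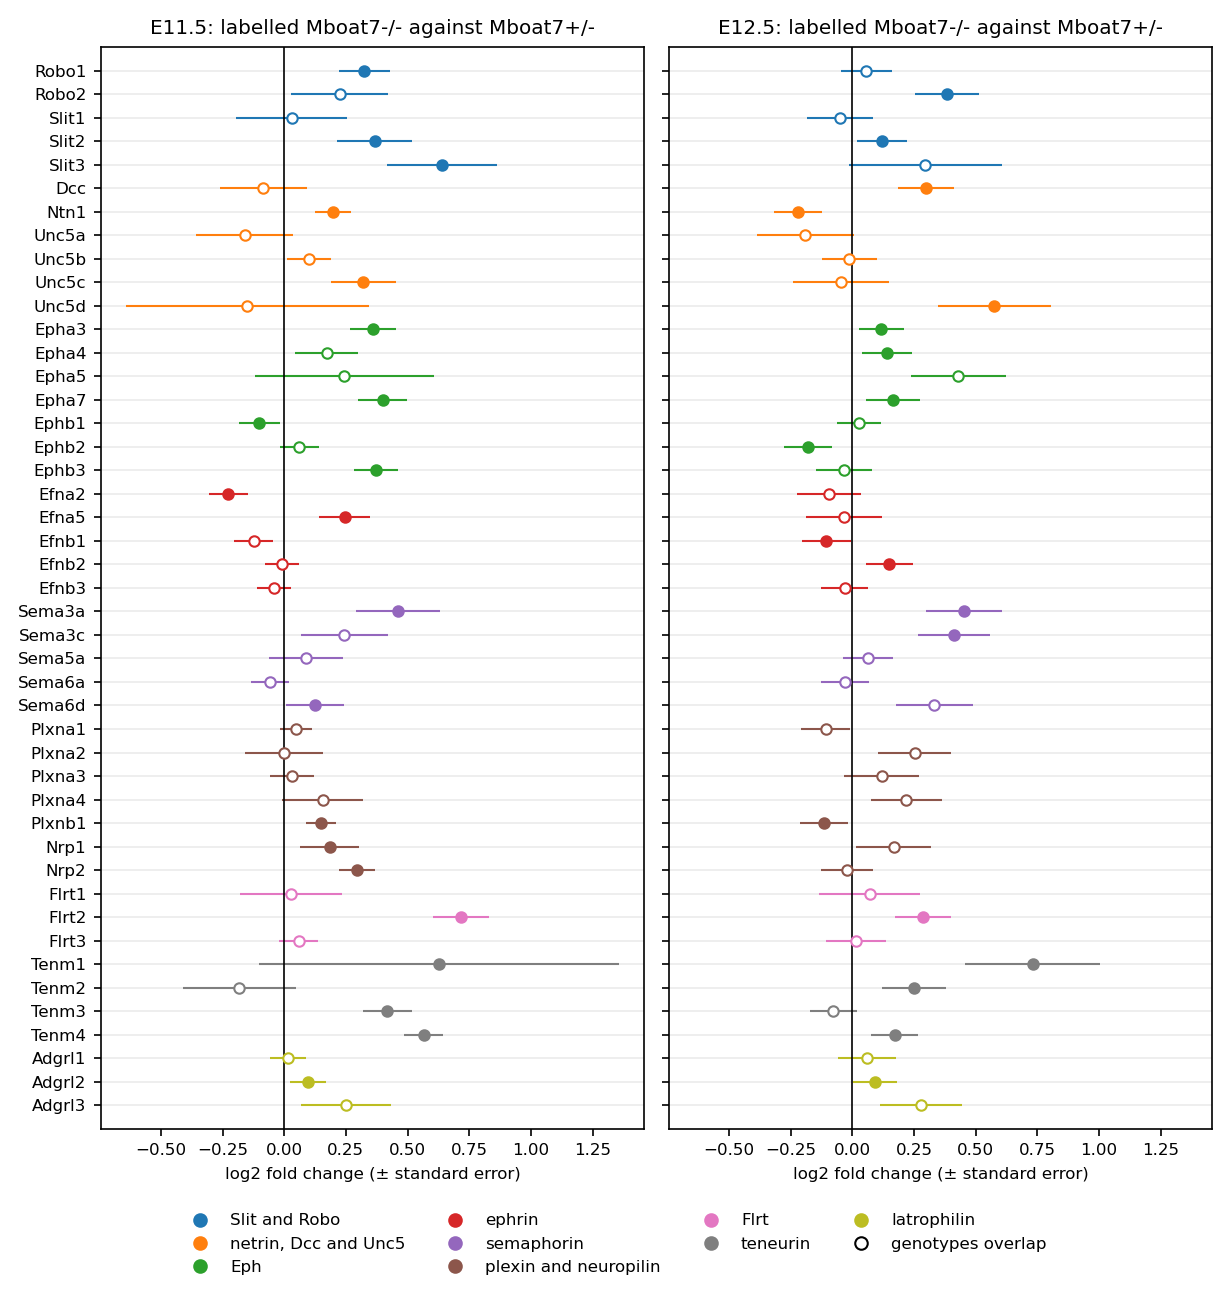
Genotype difference of each of the 45 genes at E11.5 (left) and E12.5 (right). Values are the log2 fold change of the cortices labelled Mboat7-/- over the Mboat7+/- cortices. Bars are ± 1 standard error, derived from the edgeR F statistic. Colours mark the families, and open points mark genes whose genotypes overlapped. Of the points at E11.5, 34 lie above 0 and 11 below, and at E12.5 29 lie above and 16 below.

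Among the FLRT genes, Flrt2, whose product repels Unc5d-bearing cells and binds latrophilins, did not overlap between genotypes at E11.5. It was at 40.7 and 42.7 CPM in the Mboat7+/- cortices and at 75.7 and 61.3 CPM in those labelled Mboat7-/-. At 0.72 (SE 0.11), the Flrt2 log2 fold change was the highest of the 45 genes. Both cortices labelled Mboat7-/- thus lay above both Mboat7+/- cortices. Flrt2 was a gene that stood out at E11.5 when the list was selected, so nothing is read from its place there. Of all genes tested at E11.5, 96.71% had a lower log2 fold change than Flrt2. Flrt2 at E12.5 was at 75.1 and 60.0 CPM against 79.9 and 84.7 CPM, again without overlap, with a log2 fold change of 0.29 (SE 0.11) and an unadjusted edgeR p of 0.0307. Flrt1 and Flrt3 overlapped between genotypes at both stages, with log2 fold changes between 0.02 and 0.07.

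The teneurins are large transmembrane proteins that pair with latrophilins and with each other. Tenm4 was at 59.2 and 55.9 CPM in the E11.5 Mboat7+/- cortices and at 83.3 and 86.9 CPM in those labelled Mboat7-/-, with a log2 fold change of 0.56 (SE 0.08). Within each genotype the Tenm4 values lay close together. Its SE was smaller than that of the other 3 genes with a difference of 0.5 or more. Of all genes tested at E11.5, 94.96% had a lower log2 fold change than Tenm4. As for Flrt2, nothing is read from these E11.5 values, since the list was selected on them. At E12.5, the Tenm4 level was 192 and 179 CPM against 201 and 216 CPM, a log2 fold change of 0.17 (SE 0.10). Of the Tenm4 exonic bases, 7.0% are overlapped by genes on the opposite strand, and the strand setting of the counting is not given in the sources used here. Tenm3 was at 151 and 137 CPM against 212 and 173 CPM at E11.5 (log2 fold change 0.42, SE 0.10). The Tenm3 genotypes overlapped at E12.5, at 76.9 and 69.4 CPM against 70.0 and 68.7 CPM. Tenm1 rested on few counts at E11.5, 6 and 8 against 14 and 10, so that its log2 fold change of 0.63 had an SE of 0.73. At E12.5, Tenm1 was at 3.46 and 2.96 CPM against 4.17 and 6.50 CPM, a log2 fold change of 0.73 (SE 0.27) with an unadjusted edgeR p of 0.0216. Tenm2 overlapped at E11.5 (log2 fold change -0.18, SE 0.23) and did not at E12.5 (0.25, SE 0.13). Tenm1 and Tenm4 thus lay above the control in both cortices at both stages, whereas Tenm2 and Tenm3 did so at 1 stage each.

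The latrophilins are adhesion G protein-coupled receptors for the teneurins and FLRT proteins. Adgrl2 was at 175 and 172 CPM against 195 and 176 CPM at E11.5, and at 143 and 147 CPM against 155 and 154 CPM at E12.5. The Adgrl2 genotypes did not overlap at either stage, but the log2 fold changes of 0.10 (SE 0.07) and 0.09 (SE 0.09) were of the size of their errors. Adgrl1 and Adgrl3, in which 15.7 and 14.8% of the exonic bases are overlapped on the opposite strand, overlapped between genotypes at both stages, with log2 fold changes of 0.02 and 0.06 for Adgrl1 and 0.25 and 0.28 for Adgrl3.

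**Figure D2:**
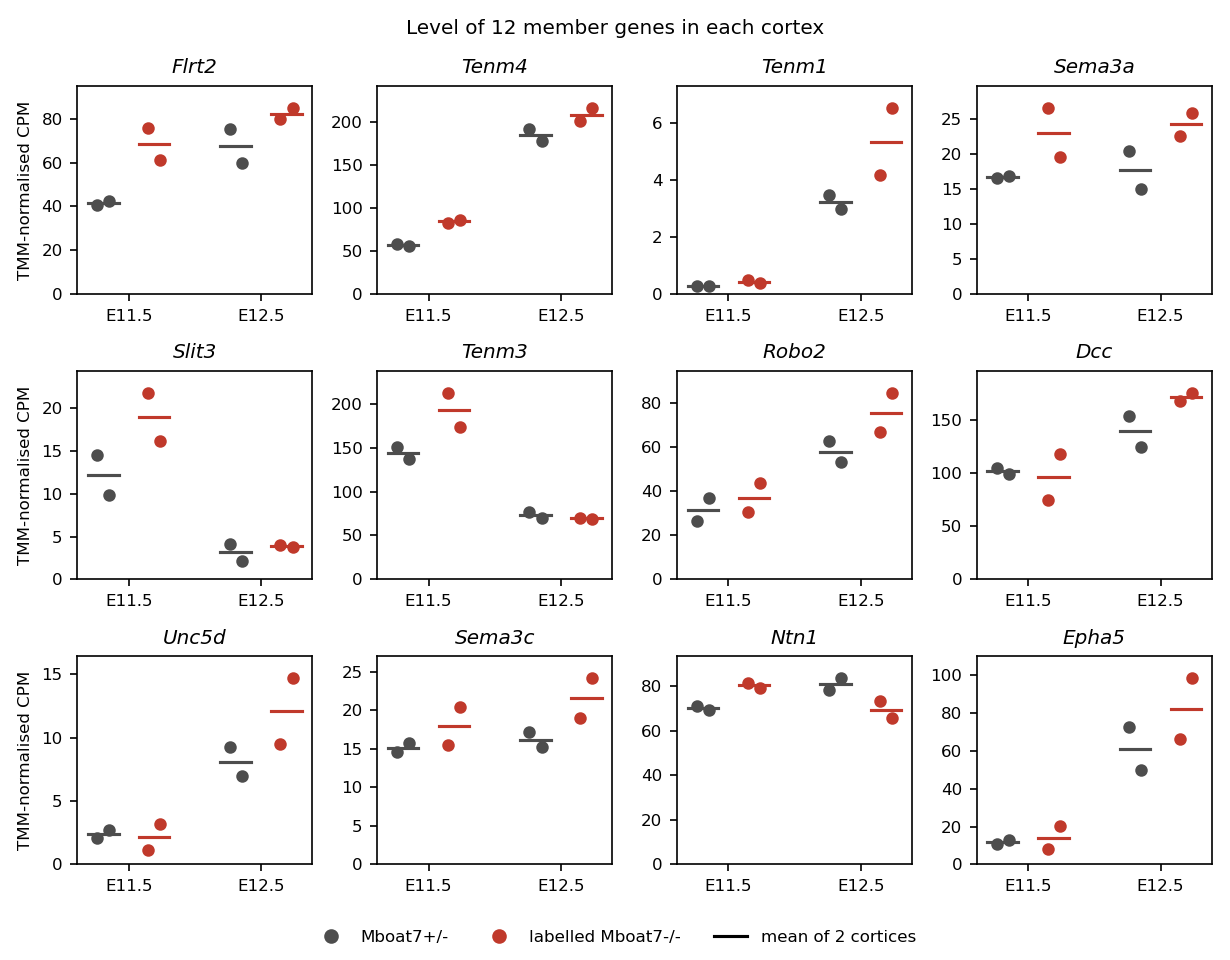
Level of 12 guidance genes in each of the 8 cortices as TMM-normalised CPM (linear axes from 0, 1 per gene), by stage and genotype; points are single cortices and bars the mean of 2. For Flrt2 and Tenm4 both red points lie above both grey points at each stage, whereas the red points of Ntn1 lie above the grey ones at E11.5 and below them at E12.5.

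Slits are secreted repellents that bind Robo receptors. Slit3 was at 14.5 and 9.90 CPM against 21.8 and 16.2 CPM at E11.5, a log2 fold change of 0.64 (SE 0.22), without overlap of the genotypes. At E12.5 Slit3 was at 4.18 and 2.18 CPM against 4.04 and 3.76 CPM, where the genotypes overlapped. Slit2 was at 44.8 and 42.5 CPM against 66.0 and 46.4 CPM at E11.5 (log2 fold change 0.37, SE 0.15) and at 55.4 and 48.6 CPM against 57.1 and 55.7 CPM at E12.5 (0.12, SE 0.10). For Slit2, the E11.5 difference came mainly from replicate 1 of the cortices labelled Mboat7-/-: without it the log2 fold change was 0.09. Slit1 overlapped at both stages (0.03 and -0.05).

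Of the Slit receptors, Robo1 did not overlap at E11.5 (log2 fold change 0.32, SE 0.10) and did at E12.5 (0.06, SE 0.10). Robo2 overlapped at E11.5, at 26.6 and 36.8 CPM against 30.7 and 43.6 CPM. At E12.5, Robo2 was at 62.9 and 53.2 CPM against 66.8 and 84.6 CPM, and its log2 fold change of 0.38 (SE 0.13) had the smallest unadjusted edgeR p of the set at 0.0126. The highest Robo2 value of that stage was that of Mboat7-/- replicate 2.

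Ntn1 was among the genes of opposite direction. At E11.5, Ntn1 was at 71.0 and 69.4 CPM against 81.6 and 79.4 CPM, a log2 fold change of 0.20 (SE 0.07). At E12.5 it was at 78.3 and 83.6 CPM against 73.2 and 65.7 CPM, a log2 fold change of -0.22 (SE 0.10) with an unadjusted edgeR p of 0.0461. Neither stage had overlapping Ntn1 values, and the cortices labelled Mboat7-/- were the higher ones at E11.5 and the lower ones at E12.5. Plxnb1, a semaphorin receptor, showed the same turn, with log2 fold changes of 0.15 (SE 0.06) and -0.12 (SE 0.10), and 3.0% of its exonic bases are overlapped on the opposite strand.

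The netrin receptor Dcc overlapped at E11.5, at 104 and 99.0 CPM against 74.1 and 118 CPM, with the lowest and the highest value both among the cortices labelled Mboat7-/-. Dcc at E12.5 was at 154 and 124 CPM against 167 and 175 CPM, a log2 fold change of 0.30 (SE 0.11) with an unadjusted edgeR p of 0.0228. Unc5d, the FLRT2 receptor of migrating cortical neurons, behaved alike at E11.5, at 2.08 and 2.68 CPM against 1.17 and 3.16 CPM. At E12.5, Unc5d was at 9.23 and 6.99 CPM against 9.51 and 14.7 CPM, a log2 fold change of 0.58 (SE 0.23) with an unadjusted edgeR p of 0.0285. The lower Unc5d value of the cortices labelled Mboat7-/- lay just above the higher Mboat7+/- value. Of the other netrin receptors, Unc5c did not overlap at E11.5 (0.32, SE 0.13) and did at E12.5 (-0.04), and Unc5a and Unc5b overlapped at both stages, with log2 fold changes between -0.19 and 0.10.

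Eph receptors are receptor tyrosine kinases. Epha3 and Epha7 were higher without overlap at both stages. Epha3 was at 38.7 and 41.6 CPM against 52.0 and 50.9 CPM at E11.5 (log2 fold change 0.36, SE 0.09), and at 96.1 and 88.8 CPM against 100.9 and 99.6 CPM at E12.5 (0.12, SE 0.09). Epha7 was at 45.4 and 45.3 CPM against 63.9 and 55.6 CPM at E11.5 (0.40, SE 0.10), and at 39.2 and 33.4 CPM against 40.8 and 40.5 CPM at E12.5 (0.16, SE 0.11). Both fold changes were lower at E12.5 than at E11.5, which is given without a test, since the list was selected on the E11.5 values. Ephb3 was at 57.9 and 53.5 CPM against 76.0 and 67.9 CPM at E11.5 (0.37, SE 0.09), but overlapped at E12.5, at 22.1 and 23.8 CPM against 22.7 and 22.1 CPM. Epha5 overlapped at both stages, at 10.8 and 13.0 CPM against 8.06 and 20.2 CPM and then at 72.6 and 49.8 CPM against 66.3 and 98.5 CPM (unadjusted edgeR p of 0.0484 at E12.5). In both stages the highest Epha5 value was that of Mboat7-/- replicate 2. Epha4 overlapped at E11.5 (0.17) and not at E12.5 (0.14). Ephb1, with 2.3% of its exonic bases overlapped on the opposite strand, was lower without overlap at E11.5 (-0.10) and overlapped at E12.5 (0.03), and Ephb2 overlapped at E11.5 (0.06) and was lower without overlap at E12.5 (-0.18).

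The ephrins, the ligands of these receptors, were the family with the fewest genes above 0, with 1 of 5 at each stage. Efna5, attached to the membrane by a lipid anchor, was at 68.9 and 58.0 CPM against 79.4 and 70.7 CPM at E11.5 (0.24, SE 0.10), and at 22.9 and 22.4 CPM against 25.9 and 18.3 CPM at E12.5, where the cortices labelled Mboat7-/- held both the highest and the lowest value. Efna2 was lower without overlap at E11.5 (-0.23, SE 0.08) and overlapped at E12.5 (-0.09, SE 0.13). The transmembrane ephrins had log2 fold changes at E11.5 and E12.5 of -0.12 and -0.11 for Efnb1, -0.01 and 0.15 for Efnb2, and -0.04 and -0.03 for Efnb3. Of these, Efnb1 was lower and Efnb2 higher without overlap at E12.5.

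Sema3a, a secreted repellent, was higher without overlap at both stages. It was at 16.6 and 17.0 CPM against 26.6 and 19.6 CPM at E11.5 (log2 fold change 0.46, SE 0.17), and at 20.5 and 15.0 CPM against 22.7 and 25.9 CPM at E12.5 (0.45, SE 0.15, unadjusted edgeR p of 0.0145). The other class 3 semaphorin, Sema3c, was at 14.6 and 15.7 CPM against 15.5 and 20.5 CPM at E11.5, where the genotypes overlapped. At E12.5, Sema3c was at 17.2 and 15.2 CPM against 19.0 and 24.2 CPM (0.41, SE 0.15, unadjusted edgeR p of 0.0171). Of the transmembrane semaphorins, Sema6d did not overlap at E11.5 (0.13, SE 0.12) and did at E12.5 (0.33, SE 0.16), and Sema5a and Sema6a overlapped at both stages, with log2 fold changes between -0.06 and 0.09.

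Neuropilins bind class 3 semaphorins and plexins pass the signal into the cell. Nrp2 was higher without overlap at E11.5 (0.30, SE 0.07) and overlapped at E12.5 (-0.02, SE 0.11), and Nrp1 likewise (0.18, SE 0.12, then 0.17, SE 0.15). Plxna1, Plxna2, Plxna3 and Plxna4 overlapped at both stages, with log2 fold changes between 0.00 and 0.16 at E11.5 and between -0.11 and 0.25 at E12.5. Of the Plxna1 exonic bases, 10.7% are overlapped on the opposite strand.

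Counted over the set at E11.5, 19 of 45 genes (42.2%) were higher without overlap in the cortices labelled Mboat7-/-, where 23.1% of all 14935 genes tested were, and 2 (4.44%, Ephb1 and Efna2) were lower, where 23.3% were. A fold change above 0 was found for 34 of the 45 genes, where 49% of all genes tested had one, and the median log2 fold change was 0.15 over the 45 genes and -0.01 over all genes tested. Since the list was drawn up from this contrast, nothing is read from these counts. At E12.5, 15 genes (33.3%) were higher without overlap, where 16.9% of all genes tested were, and 4 (8.89%, Ntn1, Ephb2, Efnb1 and Plxnb1) were lower, where 15.2% were. At that stage 29 genes had a fold change above 0, where 51.2% of all genes tested had one, and the median was 0.09 over the 45 genes and 0.00 over all genes tested. An unadjusted p under 0.05 was reached by 9 of the 45 genes at E12.5, where 4.11% of all genes tested reached it. Of these, Robo2, Dcc, Unc5d, Epha5, Sema3a, Sema3c, Flrt2 and Tenm1 were higher in the cortices labelled Mboat7-/- (8 genes, 2.76% of all genes tested) and Ntn1 was lower (1.35% of all genes tested). All 9 had an adjusted p of 0.958, so none of these differences passed the correction. For each of the 8 higher genes, the lowest value was that of Mboat7+/- replicate 2 and the highest that of Mboat7-/- replicate 2. Once the length and GC trend described below was taken out, 6 genes reached such an unadjusted edgeR p, where 4.13% of all genes did. Earlier E12.5 results were known when the list was drawn up, so nothing is read from these E12.5 counts.

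At both stages the sign of the log2 fold change was the same for 28 of the 45 genes, where 58.9% of the 13649 genes tested at both stages kept their sign. Slit2, Epha3, Epha7, Sema3a, Flrt2, Tenm1, Tenm4 and Adgrl2, 8 in all, were higher without overlap at both stages, where 4.75% of all genes were, none was lower at both, where 4.89% were, and Ntn1 and Plxnb1 turned. After removal of the length and GC trend described below, Sema3a, Flrt2, Tenm1 and Tenm4 were higher at both stages, 4 genes, where 2.67% of all genes were. Lower at both stages after removal were 2 of the 45 genes. The share of all genes that were lower after removal, or that turned, was not counted. The stages do not share embryos, but the E11.5 values are those the list was selected on, so nothing is read from these counts. No gene in the whole series was called for a difference of the genotype effect between stages (edgeR interaction, 0 of 15003 genes), although 5.70% reached an unadjusted p under 0.05 and DESeq2 called 20 of all genes. Within the set, the interaction as E12.5 minus E11.5 was -0.50 (SE 0.15) for Tenm3, -0.43 (SE 0.17) for Flrt2, -0.42 (SE 0.12) for Ntn1, -0.41 (SE 0.14) for Ephb3 and -0.40 (SE 0.12) for Tenm4 at the low end and 0.74 (SE 0.54) for Unc5d at the high end, without a test.

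The guidance genes have long transcripts, and the genotype difference moved with transcript length over all genes. Their median transcript length was 6723 nucleotides, from 2131 (Efna2) to 13172 (Tenm4), against 3149 over all genes tested at E11.5, and 38 of 45 (84.44%) belonged to the longest 25% of genes. Over all genes tested, the median log2 fold change at E11.5 was -0.12 in the shortest 25% and 0.13 in the longest 25%, and Spearman's rho between length and fold change was 0.39 over 14821 genes, which share the same 4 libraries. At E12.5, the medians were -0.05 and 0.06, and rho was 0.22 over 15510 genes. Within the 45 guidance genes, the same coefficient was 0.19 at the earlier stage and 0.29 at the later one. Among the longest 25% of all genes at E11.5, 46.8% were higher and 5.56% lower without overlap, close to the 42.2% and 4.44% of the guidance genes. At E12.5 the longest 25% had 21.3% higher and 10.5% lower, against 33.3% and 8.89% of the guidance genes.

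When a smooth curve against length and GC content was fitted to the counts of each cortex and taken out, the median log2 fold change of the 45 genes at E11.5 went from 0.15 to 0.01, and 23 of them lay above 0. Those higher without overlap became 11 (24.4%, where 16.8% of all genes were) and those lower became 8 (17.8%, where 22% were). The highest values at E11.5 after removal were those of Slit3 at 0.59, Flrt2 at 0.51, Tenm4 at 0.40, Tenm1 at 0.40 and Ephb3 at 0.34. The lowest were those of Unc5d at -0.36, Tenm2 at -0.35 and Dcc at -0.30. At E12.5 the median went from 0.09 to 0.02, with 24 genes above 0, 10 (22.2%, where 14.2% of all genes were) higher and 7 (15.6%, where 17.3% were) lower without overlap. The values at E12.5 after removal included Tenm1 at 0.57, Unc5d at 0.46, Sema3a at 0.33, Sema3c at 0.31, Flrt2 at 0.16 and Tenm4 at 0.09. Lowest at that stage were Ntn1 at -0.26 and Ephb2 at -0.25. Whether the trend with length comes from the libraries or from the tissue was not tested.

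**Figure D3:**
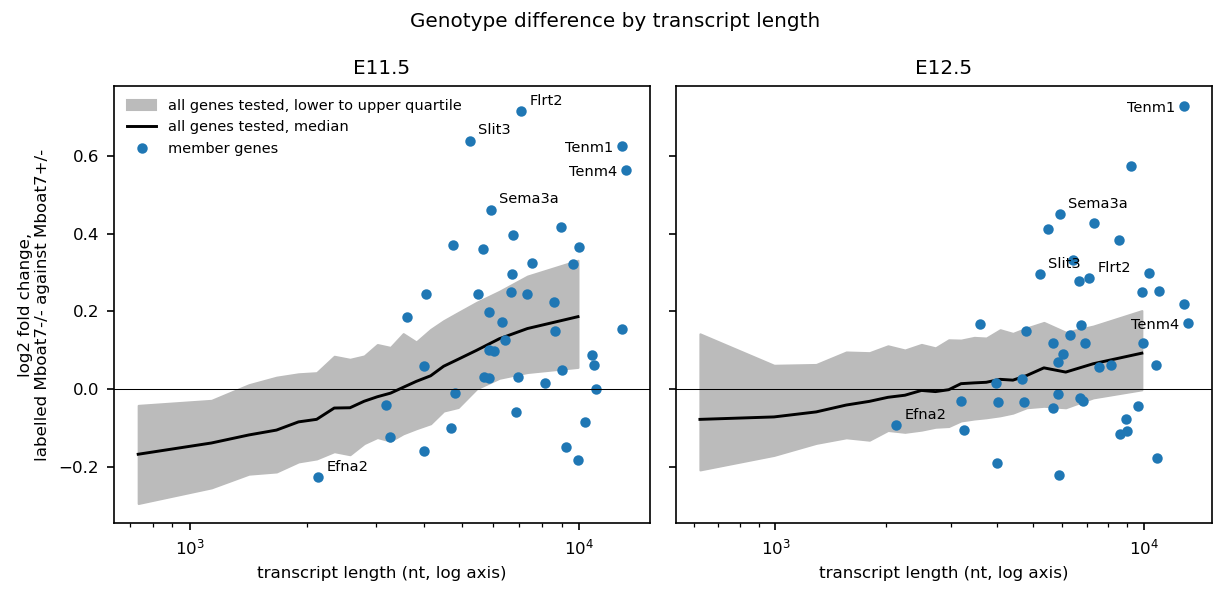
Log2 fold change of the cortices labelled Mboat7-/- over the Mboat7+/- cortices against transcript length in nucleotides (log axis) at E11.5 (left) and E12.5 (right); blue points are the 45 guidance genes, and the line and band are the median and the lower to upper quartile of all genes tested, in bins of length. The line climbs with length, more at E11.5 than at E12.5, and Flrt2, Slit3, Tenm1 and Tenm4 lie above the band at E11.5.

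The cortices of 1 genotype also differed among themselves. At E11.5, Mboat7-/- replicate 2 held the highest value of 22 guidance genes, and replicate 1 held the highest of 16 and the lowest of 15. For 11 genes, Slit1, Dcc, Unc5d, Epha5, Efnb2, Plxna2, Plxna3, Plxna4, Flrt1, Tenm2 and Adgrl1, the lowest value was that of Mboat7-/- replicate 1 and the highest that of replicate 2. At E12.5, Mboat7+/- replicate 2 held the lowest value of 29 genes and Mboat7-/- replicate 2 the highest of 20, both at once for 17 genes. The same was not counted over all genes tested, so these counts are not read as particular to the guidance genes. Leaving Mboat7+/- replicate 2 out at E12.5 brought the median log2 fold change of the set from 0.09 to 0.02. Leaving out Mboat7-/- replicate 1 instead gave a median of 0.12, and leaving out Mboat7+/- replicate 1 gave 0.18. The median of all genes was 0.01 in both of these last fits.

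Markers of other cells moved along with the genotypes at E11.5. The summed level of 10 neuronal markers was 2254 and 2548 CPM in the Mboat7+/- cortices and 1529 and 2365 CPM in those labelled Mboat7-/-, and all 10 had a log2 fold change below 0, although only Tubb3 did not overlap. The lowest neuronal sum was that of Mboat7-/- replicate 1. That cortex held the lowest value of 15 guidance genes, Dcc, Unc5d, Epha5 and Slit1 among them. It also held the highest value of 16, with Slit2, Epha3, Epha7, Sema3a, Flrt2 and Tenm3 among those. The summed level of 10 markers of mesenchyme and meninges was 1694 and 1658 CPM against 1937 and 2107 CPM. Of these 10, 7 were higher without overlap, where 23.1% of all genes tested were. Markers of red blood cells, which come with the blood held in the tissue, summed to 5817 and 4443 CPM against 2842 and 3195 CPM. At E12.5, the neuronal markers were at 3841 and 3618 CPM against 3741 and 3786 CPM and the mesenchymal ones at 712 and 552 CPM against 689 and 741 CPM, the lowest value being that of Mboat7+/- replicate 2. Every marker of the neuronal and mesenchymal lists had counts at both stages. None of the marker genes was called at either stage, although some reached an unadjusted edgeR p under 0.05. Of all genes tested, 13.8% reached it at E11.5 and 4.11% at E12.5. At E11.5 the markers that did included 7 of 10 mesenchymal and 1 of 8 endothelial ones, all higher in the cortices labelled Mboat7-/-. The others, all lower, were 4 of 5 tested blood, 4 of 8 intermediate progenitor, 3 of 5 cortex-defining, 3 of 10 radial glial, 2 of 10 ventral and 1 of 10 neuronal markers. None of the 8 markers of Cajal-Retzius cells reached it. The 8 intermediate progenitor markers all had a fold change below 0, and their summed level was 827 and 863 CPM against 615 and 794 CPM. At E12.5, 4 of 7 blood markers reached an unadjusted p under 0.05, all lower, with sums of 4146 and 6106 CPM against 4211 and 2933 CPM. So did 2 neuronal, 1 intermediate progenitor, 1 Cajal-Retzius and 1 cortex-defining marker, all higher, and 2 radial glial markers, 1 of them higher. Pax6, Emx2 and Lhx2 stand in both the radial glial and the cortex-defining lists, so 1 gene can be counted in both at either stage. The part of these markers in the values of the guidance genes was not tested.

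The second comparison was that of the stages over both genotypes. Of the 45 genes, 26 were higher and 11 lower at E12.5 than at E11.5 (edgeR quasi-likelihood test, adjusted p under 0.05), and 8 were not called. Of all 15003 genes tested, 66.4% were called, 32.7% higher and 33.7% lower. The stage, the sequencing provider, the platform and the annotation changed together, so their parts cannot be told apart. Removing the trend with length and GC content gave 23 higher and 13 lower, and upper-quartile scaling, which moved the median of all genes from -0.02 to -0.12, gave 20 higher and 15 lower. In all 17 fits made of this comparison, 17 genes were called higher and 9 lower. The shares of all genes called in these other fits were not counted, so the counts are not read as particular to the guidance genes. The genes described next belong to those called in all fits unless stated otherwise. The stage values are CPM on a scale common to both tables, as mean ± SD (n = 4), with the log2 difference as E12.5 minus E11.5.

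**Figure D4:**
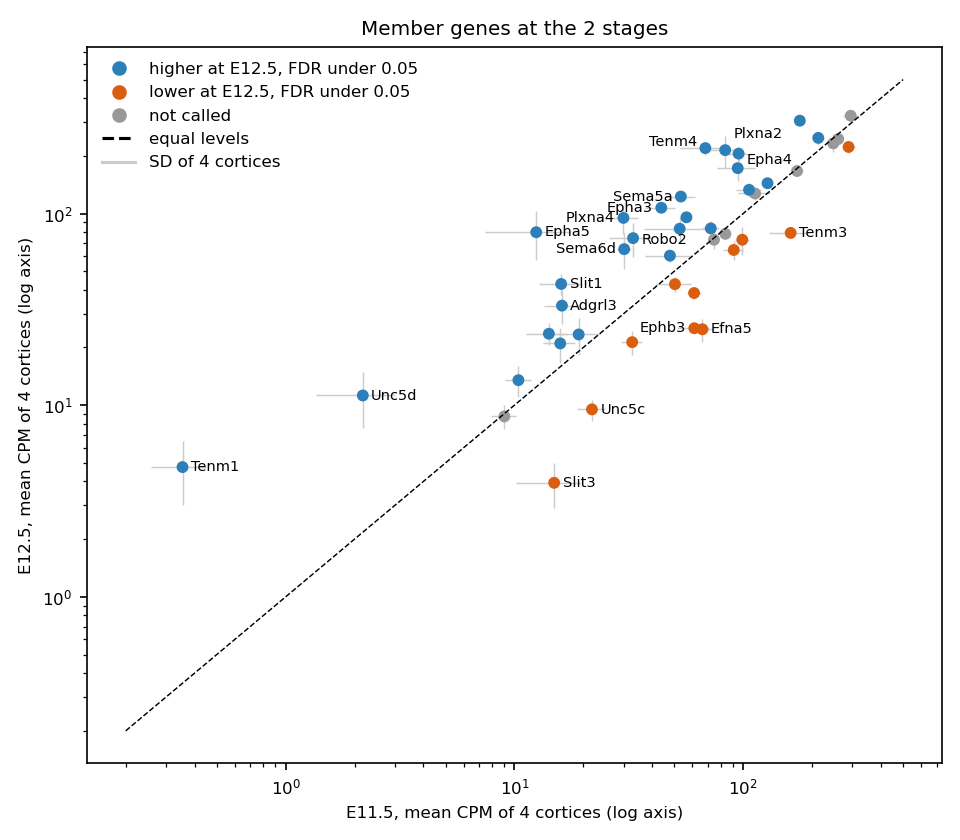
Mean level of the 45 guidance genes at E12.5 against E11.5 as CPM on log axes; each point is a gene with lines of ± 1 SD over 4 cortices, the dashed line marks equal levels, and colour marks the edgeR call. Tenm1, Epha5 and Unc5d lie farthest above the line and Slit3, Efna5 and Ephb3 farthest below, with 26 genes called higher and 11 lower.

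The largest stage differences were those of Tenm1, Epha5 and Unc5d. Tenm1 was at 0.354 ± 0.0965 CPM at E11.5 and at 4.75 ± 1.75 CPM at E12.5, a log2 difference of 3.72 (SE 0.27, adjusted p = 1.03e-07). Tenm1 was called higher in the fits that kept it, but it dropped out of 1 fit that required 10 counts in every cortex. Epha5 rose from 12.45 ± 4.98 to 79.9 ± 22.7 CPM (2.68, SE 0.23, adjusted p = 4.24e-07). Unc5d rose from 2.17 ± 0.822 to 11.2 ± 3.64 CPM (2.35, SE 0.28, adjusted p = 8.72e-06). For each of these genes, all 4 cortices at E12.5 lay above all 4 at E11.5.

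Tenm4 rose from 68.3 ± 15.4 to 219 ± 18.0 CPM (log2 difference 1.71, SE 0.08, adjusted p = 1.75e-09), and Tenm2 from 14.1 ± 2.87 to 23.6 ± 3.11 CPM (0.74, SE 0.15). Tenm3 fell from 161 ± 31.4 to 79.2 ± 4.28 CPM (log2 difference -1.01, SE 0.10, adjusted p = 1.61e-06). Among the teneurins, Tenm3 was thus the gene called lower and the other 3 were called higher. Flrt2 rose from 52.8 ± 16.0 to 83.3 ± 12.03 CPM (0.69, SE 0.10, adjusted p = 6.54e-05), although its cortices overlapped between stages. The other FLRT genes were not called, with log2 differences of -0.05 (SE 0.15) for Flrt1 and -0.03 (SE 0.08) for Flrt3. Of the latrophilins, Adgrl3 rose by 1.03 on the log2 scale (SE 0.13), and Adgrl1 (-0.09, SE 0.07) and Adgrl2 (-0.04, SE 0.05) were not called.

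The Slit ligands went in both directions. Slit1 rose from 16.0 ± 3.25 to 42.9 ± 5.24 CPM (log2 difference 1.42, SE 0.14, adjusted p = 1.24e-06), whereas Slit3 fell from 14.9 ± 4.71 to 3.94 ± 1.03 CPM (-1.90, SE 0.20, adjusted p = 3.05e-06), the lowest log2 difference of the set. Slit2 was called higher (0.34, SE 0.10, adjusted p = 0.00976), but with the length and GC trend removed it was at -0.12 (SE 0.10) and not called. Of the receptors, Robo2 rose from 33.0 ± 7.11 to 74.4 ± 14.7 CPM (1.16, SE 0.13, adjusted p = 4.20e-06), and Robo1 was not called (0.18, SE 0.09, adjusted p = 0.0737).

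Of the netrin receptors, Dcc rose from 94.6 ± 17.5 to 172 ± 24.9 CPM (log2 difference 0.86, SE 0.13, adjusted p = 5.45e-05). Unc5b (-0.66, SE 0.07) and Unc5c (-1.19, SE 0.12) fell while Unc5d rose. Ntn1 (0.21, SE 0.08, adjusted p = 0.0385) and Unc5a (0.37, SE 0.14, adjusted p = 0.0342) were called higher, but not in all fits. Of the Eph receptors, Epha3 (1.30, SE 0.07), Epha4 (1.11, SE 0.09), Epha5 and Ephb1 (0.76, SE 0.06) rose. Ephb3 fell from 61.1 ± 9.79 to 25.2 ± 0.850 CPM (-1.27, SE 0.09, adjusted p = 8.38e-08). Ephb2 (0.22, SE 0.07, adjusted p = 0.0134) and Epha7 (-0.22, SE 0.08, adjusted p = 0.0256) were called in the main test but not in all fits.

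Of the ephrins, Efna5 fell from 66.3 ± 8.52 to 24.9 ± 3.41 CPM (log2 difference -1.41, SE 0.11, adjusted p = 1.51e-07) and Efnb2 rose from 177 ± 6.23 to 305 ± 19.98 CPM (0.79, SE 0.06, adjusted p = 1.16e-07). Efna2 was called lower (-0.49, SE 0.08, adjusted p = 0.000165) but was at 0.04 (SE 0.09) and not called when the length and GC trend was removed. Efnb3 was called higher (0.17, SE 0.06, adjusted p = 0.0138), though not in all fits, and Efnb1 was not called (0.13, SE 0.06, adjusted p = 0.0709). None of the semaphorins was called lower. Sema5a (1.20, SE 0.09) and Sema6d (1.10, SE 0.11) rose, and Sema3c (0.40, SE 0.12, adjusted p = 0.00930) was called higher but not in all fits. Sema3a (0.29, SE 0.12, adjusted p = 0.0475) was near the threshold, and at -0.12 (SE 0.10) it was not called once the trend was removed. Sema6a was not called in the main test (-0.09, SE 0.06). Of their receptors, Plxna2 rose from 83.4 ± 13.7 to 214 ± 40.8 CPM (1.36, SE 0.13, adjusted p = 1.12e-06) and Plxna4 from 30.0 ± 4.82 to 94.9 ± 16.6 CPM (1.66, SE 0.12, adjusted p = 7.85e-08). Plxna3 (-0.44, SE 0.10), Plxnb1 (-0.38, SE 0.07) and Nrp1 (-0.62, SE 0.10) fell. Nrp2 was called higher (0.33, SE 0.08, adjusted p = 0.00237), not in all fits, and Plxna1 was not called (-0.09, SE 0.06).

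Removing the trend with length and GC content changed part of these stage values. How many calls changed over all genes was not counted. Of the 37 calls, 32 were kept in their direction and 5 were lost, those of Slit2, Ephb2, Efna2, Sema3a and Sema3c, and 4 genes were called that had not been. These were Efnb1, called higher at 0.57 (adjusted p = 7.82e-06), and Sema6a at -0.31 (adjusted p = 0.000370), Flrt3 at -0.30 (adjusted p = 0.00518) and Adgrl2 at -0.29 (adjusted p = 0.000959), called lower. Of the calls that were kept, 8 moved by over 1.5 times. Flrt2 went from 0.69 to 0.25, Dcc from 0.86 to 0.35, Robo2 from 1.16 to 0.67 and Sema5a from 1.20 to 0.71. Ntn1 went from 0.21 to 0.36, Unc5a from 0.37 to 0.75, Efnb3 from 0.17 to 0.62 and Epha7 from -0.22 to -0.65, farther from 0.

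Neuronal and mesenchymal markers differed between the stages as well: 9 of 10 neuronal markers were called higher at E12.5 (median log2 difference 1.01) and 9 of 10 markers of mesenchyme and meninges lower (median -1.28). Their part in the stage differences of the guidance genes was not tested.

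Further genes of these pathways were set beside the list. Of 48 other guidance ligands and receptors, 45 were tested at each stage, none was called between genotypes (edgeR, adjusted p under 0.05), and the medians of their log2 fold changes were 0.00 and 0.05, with a median transcript length of 4540 nucleotides. Those with the smallest p were the netrin receptor Neo1 (0.24, SE 0.06) and the ephrin receptor Ephb4 (0.34, SE 0.10) at E11.5, and the netrin-G gene Ntng2 (0.52, SE 0.18) and Sema7a (0.31, SE 0.12) at E12.5. At E11.5, Ephb4 was at 128 and 116 CPM against 170.4 and 139 CPM. Of 40 effectors that pass guidance signals to the cytoskeleton, all were tested and none was called, with medians of 0.04 and -0.01. At E11.5, where 0% of all genes were called and 13.8% reached an unadjusted p under 0.05, 6 of the ligands and receptors and 8 of the effectors reached it, and at E12.5 3 and 0 did. Over these lists and the cell markers together, DESeq2 called 8 and edgeR's exact test 9 at E11.5, and neither called any at E12.5. The actin regulator Enah (0.38, SE 0.06) and the exchange factor Trio (0.35, SE 0.07) had the smallest p at E11.5, and Trio (0.21, SE 0.11) and Kalrn (0.22, SE 0.12) at E12.5. Once the trend had been taken out, the E11.5 log2 fold changes were 0.16 for Enah, 0.18 for Trio, 0.08 for Neo1 and 0.33 for Ephb4, and those at E12.5 were 0.55 for Ntng2, 0.30 for Sema7a, 0.13 for Trio and 0.12 for Kalrn. At E11.5, Enah was at 189 and 179 CPM against 242 and 238 CPM, and Trio at 87.2 and 89.5 CPM against 115 and 110.4 CPM. Between stages, 19 of 46 other ligands and receptors were higher, 15 lower and 12 not called, and of the 40 effectors 20 were higher, 8 lower and 12 not called.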

How the data were processed

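For each stage, the authors deposited a table of raw counts, with 1 column per embryo and no normalization. The submitters' processing notes name HISAT2, Subread and the builds mm10 and GRCm39 without roles, and the strand setting of the counting is not given in the sources used here. Genes were matched by symbol or Ensembl identifier (99.67% of genes with a count at E11.5 and 81.45% at E12.5). Transcript lengths, GC content and exon overlaps came from GENCODE M21. No coordinates or sequences are printed.

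Each stage was fitted with edgeR 4.0.16 in R 4.3.3. Genes were kept by filterByExpr (minimum count of 10), libraries were scaled by TMM, and p-values of the quasi-likelihood test were adjusted by Benjamini-Hochberg over all genes tested, with a threshold of 0.05. Both stages were fitted jointly over 22846 shared genes with genotype as a term. Standard errors were derived as the absolute log2 fold change divided by the square root of the quasi-likelihood F statistic. The script was tested on simulated data. Alternatives were RLE and upper-quartile scaling, other count filters, DESeq2 1.42.0, edgeR's exact test, a replicate block, a spline in length and GC content with 5 degrees of freedom per cortex, and leaving out each cortex. The labels also carry a batch field, which holds the replicate number. Deviations of same-numbered cortices correlated at 0.055 (E11.5) and -0.12 (E12.5). Replicates are separate embryos and differed beyond sampling noise (chi-square per degree of freedom 8.70 to 14.9).

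All 45 genes are named. Values of every cortex are given for Tenm4, Flrt2, the 8 genes with the smallest p at E12.5, the 8 with the largest fold change without overlap at E11.5, those without overlap in the same direction at both stages, and the 3 with the largest stage difference each way. Members, lists and rules were chosen with earlier results of these data known.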

Additional observations from a re-analysis of the deposited data

How the results depend on the processing

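The replicate block, which pairs the cortices by batch, left the median log2 fold change of the 45 genes at 0.13 (E11.5) and 0.0912 (E12.5) and called none of them at E12.5, although over all genes it gave 349 calls at E11.5 against 0 and 21 at E12.5 against 3. Crossing the numbers at E12.5, chosen after seeing the data, called 3 of the 45 genes and 9 of the other pathway and marker genes. Removing the trend with length and GC brought the E11.5 median to 0.00737, and to -0.00234 with the block as well, and leaving out 1 cortex gave 0.0265 to 0.213. Between 0 and 6 of the 45 genes were called at E12.5 without 1 cortex, with a median of 0.0218 to 0.182. Among other pathway genes and markers, none called at E11.5 became 14 without a filter, 8 in DESeq2, 9 in the exact test, 19 with the block and 0 to 65 without 1 cortex. At E12.5 it became 1 with trend removal and block together and 0 to 14 without 1 cortex. Over all genes at E11.5, 317 were called without a filter, 178 in DESeq2, 176 in the exact test and 3 with trend removal and block, and 1 to 1180 without 1 cortex. At E12.5, 28 were called in the exact test, 10 in DESeq2, 53 with trend removal and block, 148 with the crossed numbers, none without a filter or with 10 counts in every cortex, and 33 to 301 without 1 cortex. DESeq2 called 20 interactions. Without 1 cortex at E12.5, Slit3 ranged from -0.102 to 0.838, Ephb3 from -0.0885 to 0.0218 and Efna5 from -0.31 to 0.194, each turning its sign. With the trend removed, the stage differences of Sema3a (-0.124), Slit2 (-0.121) and Efna2 (0.0421) changed sign and were no longer called. The causes were not tested. In fits that leave 1 cortex in a group, that cortex is assumed to vary like the rest. Over all alternatives the E11.5 log2 fold change of Flrt2 ranged from 0.505 to 0.859 and that of Tenm4 from 0.397 to 0.608. All these fits draw on the E11.5 cortices on whose values the list was selected, so the ranges are a description only. The 6 to 14 counts of Tenm1 at E11.5 limit its value there.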
